A study of Homo sapiens with 6 samples.

Results

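Histone genes were examined in HGC27 cells, a human gastric cancer cell line, as 85 rows of the 39739 in the gene tables. Members were taken by name, either as a HIST symbol of histone type H1, H2A, H2B, H3 or H4, or as one of the variant genes H1F0, H1FX, H2AFX, H2AFZ, H2AFV, H2AFY, H3F3A and H3F3B. Of these, 67 carried names of replication-dependent genes, 8 were variants, and 10 had names that mark pseudogenes and were counted apart. The replication-dependent names comprised 5 H1, 15 H2A, 22 H2B, 13 H3 and 12 H4 genes, 50 of them on chromosome 6 and 17 on chromosome 1. RNA was sequenced from 3 libraries of HGC27-FN1 3′-UTR cells, which were infected with lentivirus to overexpress the 3′-UTR of FN1 and selected with puromycin as a stable population, and from 3 libraries of HGC27-control cells. What vector the control cells of this experiment carried is not given in the sources used here, nor whether replicates were separate cultures, so p-values measure the spread between these libraries, which may be technical.

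Histone proteins package DNA. H2A, H2B, H3 and H4 form the core of the nucleosome, and H1 binds the linker between nucleosomes. Replication-dependent histone genes lie in clusters, are transcribed mainly in S phase and produce mRNAs that end in a conserved stem-loop rather than a poly(A) tail, bound by the protein SLBP. Variant histone genes stand alone in the genome, are transcribed through the cell cycle and produce polyadenylated mRNAs with introns in most cases. Some replication-dependent genes also give a polyadenylated form from a poly(A) signal downstream of the stem-loop, known mainly from differentiated cells.

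Levels are given as RPKM, reads divided by the length of the gene model and by the assigned reads of the library. This adjusts for length only as far as a model matches the mRNA. The model of H2AFY (17730 bases) is longer than any of its transcripts, and that of HIST1H2BK (381 bases) holds the coding sequence alone. The libraries held 16357085 to 37037532 assigned reads. The FN1 row, which covers the whole gene and not the introduced region alone, was at 0.777, 0.745 and 0.819 RPKM in HGC27-FN1 3′-UTR cells, against 0.543, 0.474 and 0.532 RPKM in control cells (log2 fold change 0.52 ± 0.11 SE, adjusted p = 0.0292, limma with Benjamini-Hochberg adjustment). Across 23299 tested genes, 5.62% were called higher and 7.36% lower at an adjusted p under 0.05, and the median log2 fold change was -0.04. Of the mesenchymal markers beside FN1, VIM was between 286 and 324 RPKM in all libraries. SPARC was higher in HGC27-FN1 3′-UTR cells (38.5 ± 0.964 against 21.3 ± 1.57 RPKM, SD, n = 3). Of the 3 fibroblast markers, COL3A1 was called higher (111 ± 0.884 against 82.1 ± 4.74 RPKM). PDGFRB (0.172 ± 0.0343 against 0.158 ± 0.0231 RPKM) and DCN (2.02 ± 0.0918 against 1.64 ± 0.186 RPKM) were not called. The gastric markers MUC5AC and TFF1 were at or near 0. All 5 epithelial markers were low and higher in HGC27-FN1 3′-UTR cells, from KRT8 at 12.2 ± 2.04 against 2.15 ± 0.135 RPKM (SD, n = 3) to CDH1 at 0.703 ± 0.11 against 0.126 ± 0.0276 RPKM. The part of these cell features in the histone values was not tested, and in bulk RNA fewer cells of a kind and less RNA per cell cannot be told apart.

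The sequences that separate the classes of histone mRNA are shown first. In the GENCODE release 29 transcripts, 32 of the 67 replication-dependent genes had a transcript with the 16-base stem-loop, and 25 had a transcript with a poly(A) signal (AATAAA or ATTAAA) in its last 50 bases. Both features were found for 23 genes and neither for 33, many of whose models stop at the end of the coding sequence. All 8 variants had a poly(A) signal, and 1 of them, H2AFX, also had a stem-loop. Among 19669 protein-coding genes, 0.529% held the stem-loop, 104 genes in all, of which 30 were members. The stem-loops of the members on which the results turn are given below on the transcribed strand, 5′ to 3′, with the 16-base stem-loop in capitals and the flanking bases in lower case.
HIST1H2BD: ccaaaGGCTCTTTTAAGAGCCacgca
HIST1H2BC: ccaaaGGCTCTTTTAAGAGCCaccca
HIST1H2AC: ccaaaGGCTCTTTTCAGAGCCcccct
HIST1H4I: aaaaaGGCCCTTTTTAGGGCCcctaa
H2AFX: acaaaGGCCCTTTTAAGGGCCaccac

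The capitals lie in the 3′-UTR in GRCh38, at chr6:26158587-26158602 (plus strand) for HIST1H2BD, chr6:26123472-26123487 (minus) for HIST1H2BC, chr6:26124669-26124684 (plus) for HIST1H2AC, chr6:27139654-27139669 (plus) for HIST1H4I and chr11:119094898-119094913 (minus) for H2AFX. The annotated transcript goes on for 39 bases after the stem-loop in HIST1H2BD and for 116 bases in HIST1H2BC, and each of these 2 genes also has a spliced transcript of 2 exons without the stem-loop that ends at a poly(A) signal. In HIST1H2AC the transcript continues for 1114 bases, in HIST1H4I for 212 bases and in H2AFX for 1044 bases. The most common stem-loop, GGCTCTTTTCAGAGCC, was shared by 17 replication-dependent genes.

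The annotated models of HIST1H2BK (381 bases) and HIST1H1C (642 bases) hold the coding sequence alone, and that of HIST1H2BJ has a poly(A) signal but no stem-loop. Reads from UTRs outside a model were therefore not part of its RPKM.

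Variant histone mRNAs were more abundant than replication-dependent ones in every library. The 8 variants had mean levels of 10.3 to 81.1 RPKM over the 6 libraries, whereas 2 of 67 replication-dependent genes were above 10 RPKM, 17 were above 1 RPKM and the median was 0.303 RPKM. HIST1H2BB had 0 reads in all 6 libraries. Summed over each class, the 8 variants reached 303 to 316 RPKM in HGC27-FN1 3′-UTR cells, against 281 to 307 RPKM in control cells. The 67 replication-dependent genes together reached 83.5, 82.7 and 109 RPKM in HGC27-FN1 3′-UTR cells, against 83.2, 71.0 and 66.0 RPKM in control cells. The variant sum was 2.86 to 4.65 times the replication-dependent sum. These levels describe the libraries rather than the cells, since the sources used here name an mRNA library kit but do not state whether polyadenylated RNA was selected.

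**Figure D1:**
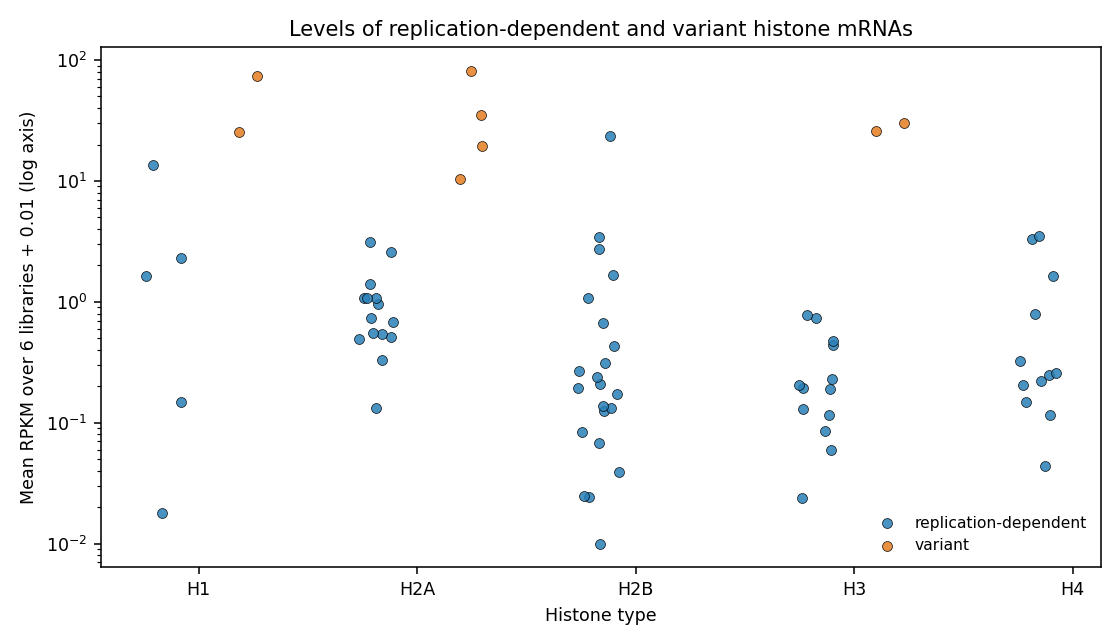
Mean RPKM over the 6 libraries plus 0.01, on a log axis, for the 67 replication-dependent and 8 variant genes by histone type, 1 point per gene and spread sideways for display. All 8 variants lie above 10 RPKM, with 2 replication-dependent genes above that level and most below 1 RPKM.

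The order of the types differed between the classes. For H3, the variants H3F3A and H3F3B summed to 11.3 to 29.3 times the 13 replication-dependent H3 genes. For H2A the variants summed to 6.56 to 14.0 times, and for H1 to 4.07 to 9.26 times, their replication-dependent counterparts. No variant H2B or H4 gene belongs to the set. Within the replication-dependent class, H2B genes summed to 41.1 ± 0.716 RPKM in HGC27-FN1 3′-UTR cells, against 30.01 ± 2.20 RPKM in control cells (SD, n = 3), more than the H1 genes (19.9 ± 4.37 and 15.4 ± 4.61 RPKM), the H2A genes (16.2 ± 6.43 and 14.2 ± 4.04 RPKM) and the H4 genes (11.3 ± 2.37 and 10.1 ± 1.601 RPKM). The H3 genes had the lowest sum, 3.35 ± 1.57 and 3.74 ± 0.79 RPKM.

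Among replication-dependent histone genes, 5 were upregulated in HGC27-FN1 3′-UTR cells and none was called downregulated by limma. These were HIST1H2BK, HIST1H1C, HIST1H4I, HIST1H2BJ and HIST1H2BD, all in the chromosome 6 cluster and with 1.37- to 1.80-fold higher mean RPKM. Of 67 genes, 55 passed the filter on low values, so 9.09% of those tested were called higher beside 5.62% of all genes tested, and 0 were called lower beside 7.36%. At an unadjusted p under 0.05, 10 of the 55 passed, beside 29.6% of all genes tested. Voom on recovered reads called 5 higher and 0 lower. Of those 5, 4 were among the genes named above, with HIST1H2AC in place of HIST1H2BD. The estimate was above 0 in 38 and below 0 in 17, with a median log2 fold change of 0.22, while 43.7% of all tested genes had an estimate above 0. A member that passed the filter did so on its level in at least 3 libraries, so these counts do not extend to the 12 genes that were not tested, which had 0 to 37 reads in all.

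HIST1H2BK encodes a histone H2B and had the highest level of the class. It lies at chr6:27146418-27146798 and was at 28.9, 28.4 and 26.2 RPKM in HGC27-FN1 3′-UTR cells, against 18.6, 19.0 and 21.3 RPKM in control cells. The lowest HGC27-FN1 3′-UTR library was above the highest control library. The log2 fold change was 0.50 ± 0.06 (SE), with an adjusted p of 0.00703 by limma and 1416 reads in all libraries together. Of its 50-base windows, 22.6% also occurred in another gene, so its reads could in part be shared with other H2B genes.

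HIST1H1C encodes a linker histone of the H1 family and ranked second. It lies at chr6:26055787-26056428 and was at 14.5, 16.8 and 17.7 RPKM in HGC27-FN1 3′-UTR cells, against 11.6, 10.7 and 10.1 RPKM in control cells. The groups did not overlap, and the log2 fold change was 0.58 ± 0.09 (SE; adjusted p = 0.0108, limma). HIST1H2BK and HIST1H1C were also called when any 1 of the 6 libraries was left out, with adjusted p-values up to 0.0372 and 0.0499. In the fit with a replicate block, HIST1H2BK was the 1 replication-dependent gene still called and HIST1H1C had an adjusted p of 0.0551.

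HIST1H4I encodes the core histone H4. It lies at chr6:27138588-27139881 and was at 4.54, 4.02 and 3.60 RPKM in HGC27-FN1 3′-UTR cells, against 2.87, 2.91 and 3.07 RPKM in control cells, with no overlap (log2 fold change 0.44 ± 0.09 SE, adjusted p = 0.0263, limma). HIST1H2BD, an H2B gene, lies at chr6:26158146-26171349 and was at 3.51, 3.29 and 2.83 RPKM against 1.95, 2.53 and 2.36 RPKM (0.48 ± 0.12, adjusted p = 0.0497). HIST1H2BJ, also an H2B gene, lies at chr6:27125897-27132750 and was at 1.67, 1.03 and 1.37 RPKM against 0.66, 0.786 and 0.824 RPKM (0.75 ± 0.18, adjusted p = 0.0437). In each of these 3 genes all HGC27-FN1 3′-UTR libraries were above all control libraries. Their calls were mostly lost with 1 library left out, while the log2 fold changes stayed above 0. They were 0.36 to 0.52 for HIST1H4I, 0.60 to 0.92 for HIST1H2BJ and 0.37 to 0.56 for HIST1H2BD. HIST1H4I stayed called without HGC27-FN1 3′-UTR replicate 3 and was lost when any other library was left out (adjusted p up to 0.0906). HIST1H2BJ stayed called without HGC27-FN1 3′-UTR replicate 2 and was lost otherwise (up to 0.112), and HIST1H2BD was lost whichever library was left out (0.0541 to 0.134).

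Beside HIST1H2BD, which was just inside the threshold, HIST1H2AC and HIST1H2BC were just outside it. HIST1H2AC, an H2A gene, was at 1.06, 1.35 and 1.46 RPKM against 0.993, 0.70 and 0.777 RPKM (log2 fold change 0.59 ± 0.16 SE, adjusted p = 0.0656, limma). HIST1H2BC was at 0.806, 0.589 and 1.15 RPKM against 0.43, 0.467 and 0.486 RPKM (0.72 ± 0.22, adjusted p = 0.0855). Both had groups that did not overlap. In total, 10 of 55 tested replication-dependent genes were higher without overlap, which is 14.3% for all genes tested, and 1, HIST1H3H, was lower without overlap, which is 21.7% for all genes tested. The remaining genes that were higher without overlap, HIST1H2BE, HIST1H3E and HIST1H4H, had means of at most 0.268 RPKM in either group.

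**Figure D2:**
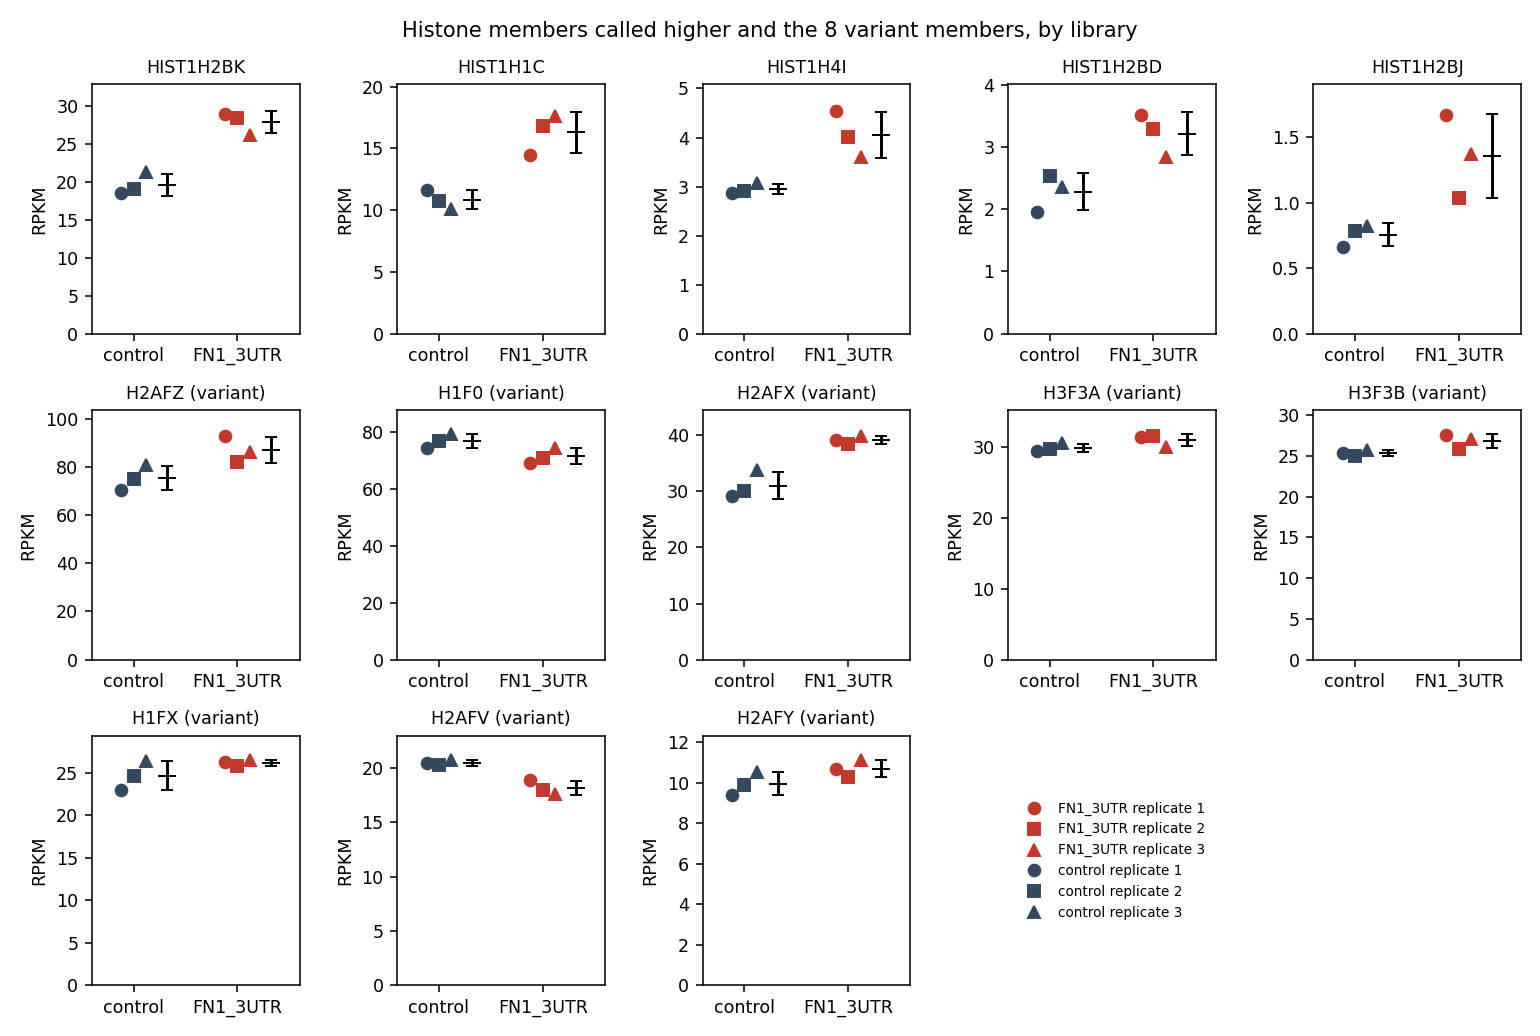
RPKM in each library for the 5 replication-dependent genes called higher and the 8 variants, with points for the 3 libraries of a group, the mean and SD as black bars, and every axis starting at 0. In the 5 replication-dependent genes, H2AFX, H2AFZ and H3F3B every HGC27-FN1 3′-UTR library lies above every control library, and in H2AFV every one lies below.

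By type, 3 of the 16 tested H2B genes, 1 of the 4 tested H1 genes and 1 of the 10 tested H4 genes were called higher, and none of the 15 H2A or 10 tested H3 genes was called by limma. An unadjusted p under 0.05 was reached by 1 H2A gene and 2 H3 genes, and voom on recovered reads called 1 H2A gene higher, HIST1H2AC, at an adjusted p of 0.00894. Whether types differed from each other was not tested. Median log2 fold changes of tested genes were 0.26 for H1, 0.36 for H2A, 0.28 for H2B, -0.06 for H3 and 0.10 for H4. The H2B sum was higher in all HGC27-FN1 3′-UTR libraries (41.2, 40.3 and 41.8 RPKM) than in any control library (27.9, 29.9 and 32.3 RPKM), and HIST1H2BK made up most of it. The sums of the other 4 types overlapped between groups.

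By cluster, the 5 calls were among the 43 tested genes of the HIST1 cluster on chromosome 6, whereas none of the 11 tested HIST2 genes and 1 tested HIST3 gene on chromosome 1 was called, nor did any reach an unadjusted p under 0.05. The most abundant HIST2 genes were HIST2H2BC at 3.44 RPKM over all libraries (0.18 ± 0.19 SE), HIST2H2AA3 at 3.14 RPKM (0.29 ± 0.24) and HIST2H2AA4 at 2.59 RPKM (-0.18 ± 0.18). HIST2H2AA3 shares all, and HIST2H2AA4 97.1%, of its 50-base windows with another member, mainly with each other, so how their reads were divided is uncertain. Of the replication-dependent genes, 14 shared at least 50% of their windows with another member and are uncertain in the same way. Among them were HIST2H4A with HIST2H4B (97.5% of windows shared), HIST1H4K with HIST1H4J, and HIST2H3A with HIST2H3C. HIST2H2BC, HIST2H2BD, HIST2H2BA, HIST2H2BB and HIST3H2BA carry replication-dependent names but are annotated as pseudogenes in GENCODE.

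**Figure D3:**
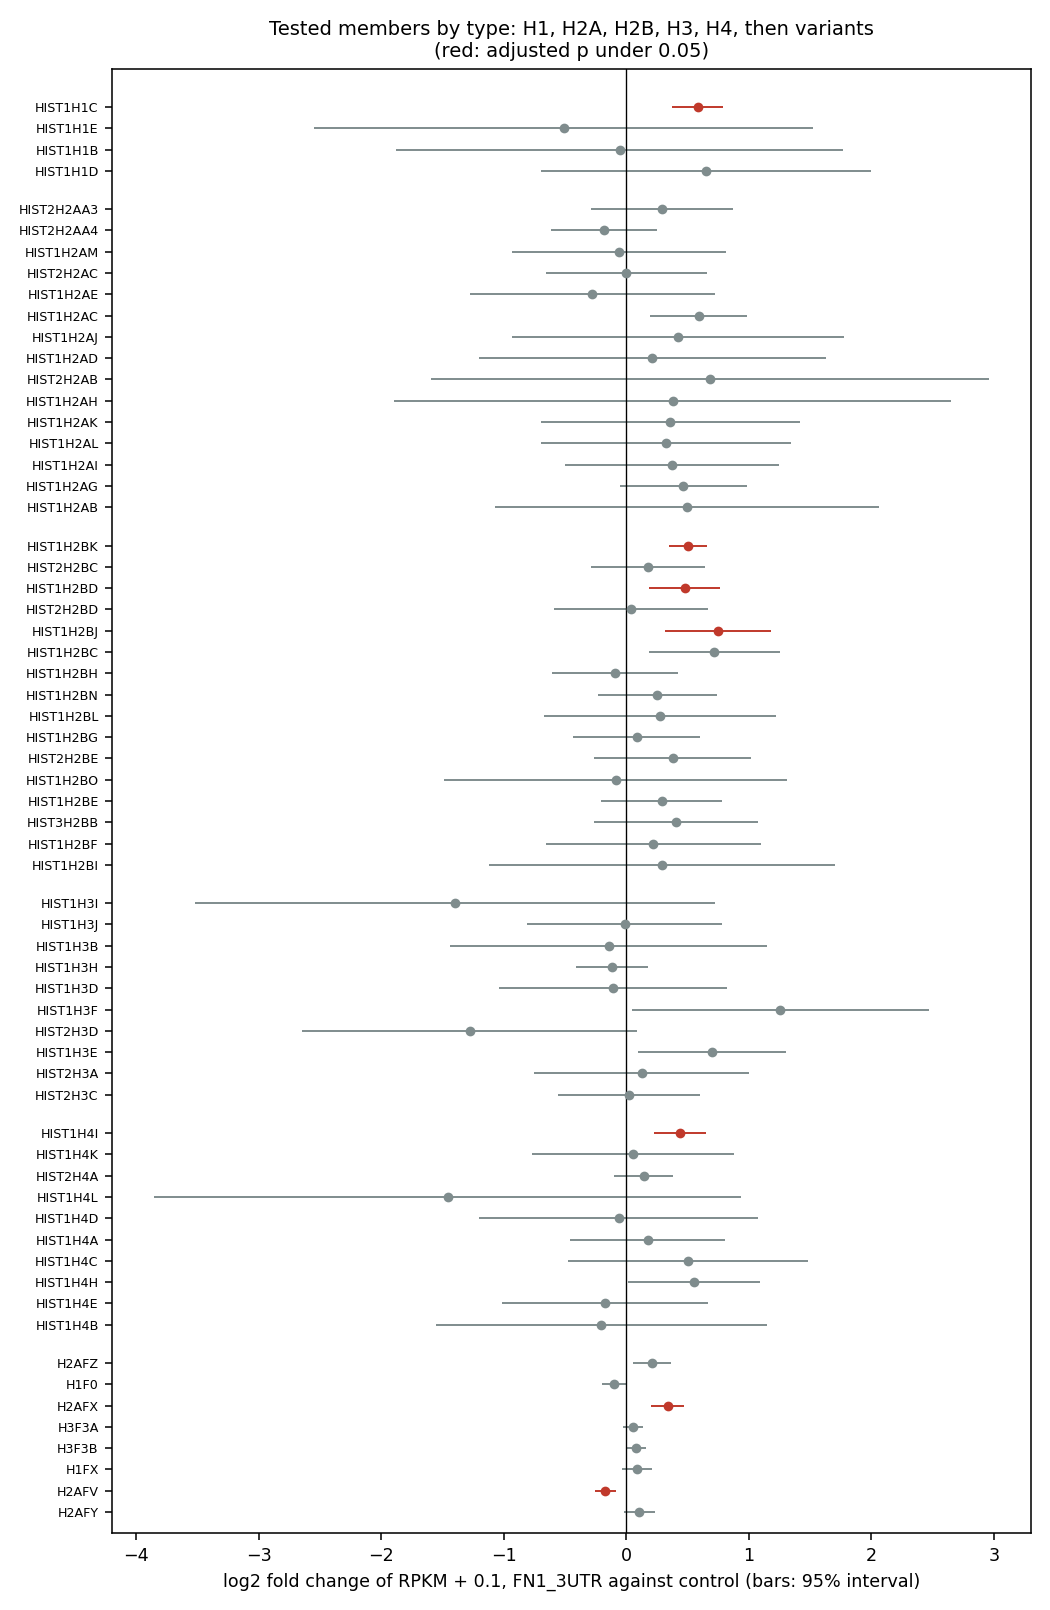
Log2 fold change of RPKM + 0.1 in HGC27-FN1 3′-UTR against control cells with its 95% interval, for the 55 tested replication-dependent genes by type and the 8 variants, each ordered by level and with genes at an adjusted p under 0.05 in red. Intervals are narrow for the variants and for HIST1H2BK, and wide for most replication-dependent genes.

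The other abundant genes of each type were not called, and several of them varied more within a group than between groups. HIST1H1E, a linker histone gene, was at 0.73, 1.03 and 3.50 RPKM in HGC27-FN1 3′-UTR cells, against 5.82, 2.02 and 0.68 RPKM in control cells (log2 fold change -0.51 ± 0.84 SE, 95% interval -2.55 to 1.52). HIST1H1B, another linker histone gene, was at 0.988, 0.601 and 3.27 RPKM against 2.96, 1.43 and 0.515 RPKM (-0.05 ± 0.76). In both, HGC27-FN1 3′-UTR replicate 3 and control replicate 1 stood above the other libraries. HIST1H4K, an H4 gene, was at 2.55, 2.23 and 5.82 RPKM against 3.30, 3.22 and 2.77 RPKM (0.06 ± 0.34). HIST1H2AM, an H2A gene, was at 1.09, 0.833 and 2.35 RPKM against 1.37, 1.65 and 1.099 RPKM (-0.06 ± 0.36). HGC27-FN1 3′-UTR replicate 3 was again the highest library in both. HIST2H4A, an H4 gene, stayed between 1.49 and 1.94 RPKM in all libraries (0.14 ± 0.10). The most abundant H3 genes were low, with HIST1H3I at 0.476 ± 0.429 and 1.07 ± 0.675 RPKM (SD, n = 3), HIST1H3J at 0.755 ± 0.419 and 0.708 ± 0.123 RPKM, and HIST1H3B at 0.443 ± 0.341 and 0.486 ± 0.333 RPKM.

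The study's criteria (a log2 fold change beyond 1 in either direction with P under 0.05 before adjustment) were applied to the limma fit, and the study's own test was not repeated. In this way 1 replication-dependent gene was upregulated (1.65% of all genes tested) and none was downregulated (0.815% of all genes tested). This gene was HIST1H3F, an H3 gene with 9 reads in HGC27-FN1 3′-UTR cells and 3 reads in control cells, a ratio of 3.87 after division by depth with an exact 95% interval of 0.965 to 22.2 that covers counting error only.

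The replication-dependent genes without an annotated poly(A) signal end differed more between libraries than between groups, once HIST1H2BK and HIST1H1C were set aside. These 40 genes summed to 18.8, 17.0 and 38.8 RPKM in HGC27-FN1 3′-UTR cells, against 33.8, 22.5 and 15.7 RPKM in control cells. The 25 genes with such an end summed to 21.4, 20.6 and 26.7 RPKM against 19.2, 18.7 and 18.9 RPKM, so these groups did not overlap. HIST1H2BK and HIST1H1C together had 43.4, 45.1 and 43.8 RPKM against 30.2, 29.7 and 31.4 RPKM, and made up 36.3 to 54.6% of the replication-dependent sum of a library. Setting them aside was a choice made after their values were seen. Of 56 replication-dependent genes with at least 10 reads, 42 had HGC27-FN1 3′-UTR replicate 3 as the highest of its group and 24 had control replicate 1 as the highest of its group. These numbers were 16 and 7 for the 23 genes with a poly(A) signal end, and 26 and 17 for the 33 without. The corresponding numbers for 22410 tested genes with at least 10 reads were 7453 and 5943.

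A list of RNAs that lack a poly(A) tail had, in sum, the same 2 libraries on top. The sum of the 22 listed RNAs with a row was 192, 177 and 656 RPKM in HGC27-FN1 3′-UTR cells, against 582, 358 and 307 RPKM in control cells. In the 2 top libraries most of this sum came from RN7SK, RN7SL1 and RN7SL2. RN7SL1 was at 38.9, 36.4 and 189 RPKM against 165, 69.2 and 74.5 RPKM. RN7SL2 was at 40.1, 33.4 and 187 RPKM against 140, 63.0 and 58.1 RPKM. RN7SK, a small nuclear RNA that restrains transcription elongation, was at 37.1, 34.1 and 176 RPKM against 208, 150 and 99.5 RPKM, and RMRP, the RNA of an endoribonuclease, was at 0.912, 1.22 and 7.16 RPKM against 3.34, 2.54 and 2.22 RPKM. RPPH1, the RNA of ribonuclease P, varied less, at 39.96, 39.2 and 47.7 RPKM against 40.6, 42.4 and 39.6 RPKM. Of 17 such RNAs with at least 10 reads, 15 had HGC27-FN1 3′-UTR replicate 3 as the highest of its group, but only 5 had control replicate 1. None of the 18 RNAs of this list that were tested was called by limma or reached an unadjusted p under 0.05. Reads of RN7SK and of the related RN7SL genes may be shared with their many copies. The part of this library difference in the replication-dependent values was not tested. The mean of the replication-dependent sum was 1.25 times as high in HGC27-FN1 3′-UTR cells as in control cells with all 67 genes and 1.11 times as high without HIST1H2BK and HIST1H1C, with overlapping groups in both cases. With all 67 genes the groups no longer overlapped after median-ratio scaling (84.3, 84.0 and 110.4 against 83.8, 69.4 and 64.7), nor as reads not divided by length, nor without the 14 genes that share windows with a copy.

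**Figure D4:**
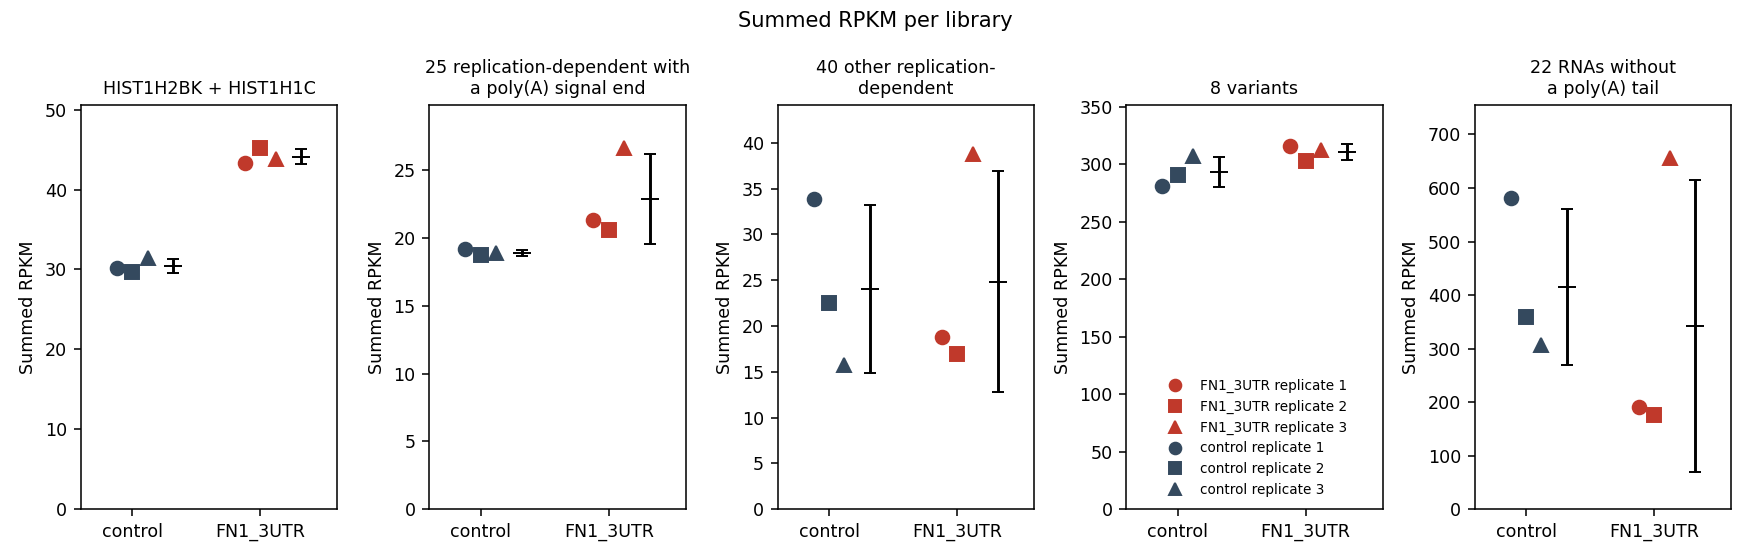
Summed RPKM per library, each axis starting at 0, for HIST1H2BK with HIST1H1C, 25 replication-dependent genes with an annotated poly(A) signal end, the 40 other replication-dependent genes, the 8 variants and 22 RNAs without a poly(A) tail, with the mean and SD as black bars. HGC27-FN1 3′-UTR replicate 3 and control replicate 1 are the highest of their groups for the 40 other replication-dependent genes (38.8 and 33.8 RPKM). The same holds for the RNAs without a poly(A) tail (656 and 582 RPKM). For the 25 genes with a poly(A) signal end, HGC27-FN1 3′-UTR replicate 3 is the highest of its group (26.7 RPKM). Their 3 control libraries lie close together (19.2, 18.7 and 18.9 RPKM). These 2 libraries are not the highest of their groups for HIST1H2BK with HIST1H1C.

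Fold changes of the variant histone genes were small. Of 8 tested, H2AFX was upregulated, H2AFV was downregulated and 6 were not called, and every log2 fold change lay between -0.17 and 0.34. For all genes tested, 5.62% were called higher and 7.36% lower. At an unadjusted p under 0.05 by limma, 5 of the 8 passed, beside 29.6% of all genes tested. The median log2 fold change of the variants was 0.08, beside -0.04 for all genes tested. After median-ratio scaling the groups of the variant sum no longer overlapped (319, 307 and 316 against 283, 285 and 301). In RPKM, the variant H2A sum was higher without overlap (162, 149 and 155 against 130, 135 and 146). So was the variant H3 sum (59.0, 57.3 and 57.0 against 54.6, 54.6 and 56.3), while the variant H1 sum overlapped.

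H2AFX encodes the H2A variant that is phosphorylated next to DNA double-strand breaks. It lies at chr11:119093854-119095467 and was at 39.1, 38.4 and 39.9 RPKM in HGC27-FN1 3′-UTR cells, against 29.2, 30.1 and 33.7 RPKM in control cells, with no overlap (log2 fold change 0.34 ± 0.06 SE, adjusted p = 0.0157, limma). It was the variant with a stem-loop upstream of its poly(A) signal. The call was lost without HGC27-FN1 3′-UTR replicate 1 (adjusted p = 0.0575), HGC27-FN1 3′-UTR replicate 3 (0.0518) or control replicate 2 (0.0653).

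H2AFZ and H2AFV encode the 2 forms of the H2A.Z variant, which is placed at promoters and regulatory elements. H2AFZ was at 92.9, 81.9 and 86.1 RPKM in HGC27-FN1 3′-UTR cells, against 70.6, 74.8 and 80.5 RPKM in control cells. All HGC27-FN1 3′-UTR libraries were higher, but its adjusted p was 0.0866 (log2 fold change 0.21 ± 0.06 SE, limma). H2AFV was at 18.9, 18.0 and 17.6 RPKM against 20.5, 20.2 and 20.7 RPKM (-0.17 ± 0.04, adjusted p = 0.0272), with every HGC27-FN1 3′-UTR library below every control library. After median-ratio scaling of the libraries H2AFZ was called higher (adjusted p = 0.0434) and H2AFV was no longer called (0.056), with the directions kept. H2AFV stayed called when HGC27-FN1 3′-UTR replicate 1 was left out and was lost when any other library was (adjusted p up to 0.0859). H2AFY, which encodes macroH2A, a variant of silent chromatin, was at 10.7 ± 0.405 against 9.95 ± 0.571 RPKM (SD, n = 3; log2 fold change 0.11 ± 0.05 SE).

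H3F3A and H3F3B encode the replacement variant of H3 that is deposited outside S phase. H3F3A was at 31.4, 31.5 and 29.98 RPKM in HGC27-FN1 3′-UTR cells, against 29.3, 29.6 and 30.5 RPKM in control cells, and these groups overlapped (log2 fold change 0.05, 95% interval -0.03 to 0.13). H3F3B was at 27.6, 25.9 and 27.0 RPKM against 25.3, 24.97 and 25.7 RPKM, which did not overlap (0.08, adjusted p = 0.168, limma). The linker variant H1F0, known from quiescent and differentiated cells, was at 69.1, 70.8 and 74.4 RPKM against 74.2, 76.7 and 79.0 RPKM (-0.10, adjusted p = 0.145). The linker variant H1FX was at 26.2, 25.8 and 26.5 RPKM against 23.0, 24.7 and 26.4 RPKM (0.09, adjusted p = 0.326). Exons of H3F3A, H3F3B, H1FX, H2AFZ and H2AFY overlap a gene on the other strand, and whether reads were counted by strand is not given in the sources used here. Groups without overlap were seen for 3 of 8 variants in the higher and 1 of 8 in the lower direction, which for all genes tested are 14.3% and 21.7%.

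Many H2A and H2B genes lie head to head and share a promoter, and members of some pairs had like estimates. There were 11 such pairs of replication-dependent genes, with 218 to 330 bases between the starts of the 2 gene models. In 7 of the 10 pairs with both genes tested, both estimates were above 0. Paired or not, 12 of 15 tested replication-dependent H2A genes and 14 of 16 H2B genes had an estimate above 0. The promoters of H2A and H2B genes are known for the octamer ATTTGCAT, a binding sequence of the POU factor OCT1. In RefSeq promoters (250 bases before to 50 after the start, GRCh38.p14, matched for 58 members), the octamer was found on either strand in 10 of 14 replication-dependent H2A and 11 of 14 H2B promoters, in none of the H1, H3 or H4 promoters, in none of 4 variant promoters, and in 1.77% of 35116 promoters overall. Each of 7 octamers lay in the promoters of 2 genes. The windows of 3 pairs are shown on the strand of the H2B gene, the minus strand, with the octamer in capitals.
HIST1H2BC and HIST1H2AC: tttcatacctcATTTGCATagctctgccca
HIST1H2BJ and HIST1H2AG: ctcttcaccttATTTGCATaagcgattcta
HIST1H2BG and HIST1H2AE: ttgaattctttATTTGCATgaaaggcctat

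These windows lie at chr6:26124031-26124060, chr6:27132824-27132853 and chr6:26216718-26216747. HIST1H2BC and HIST1H2AC had log2 fold changes of 0.72 ± 0.22 and 0.59 ± 0.16 (SE). HIST1H2BJ and HIST1H2AG had 0.75 ± 0.18 and 0.47 ± 0.21, the second with groups that overlapped (0.326, 0.382 and 0.457 against 0.259, 0.332 and 0.18 RPKM). HIST1H2BG and HIST1H2AE, with the same octamer, had 0.08 ± 0.21 and -0.28 ± 0.42. HIST1H2BK and HIST1H2AH had 0.50 ± 0.06 and 0.38 ± 0.94, the second from 30 reads in all. Whether pairs moved more alike than other genes was not tested.

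Of the genes of histone mRNA metabolism, 24 were listed and all were tested. SLBP, which binds the stem-loop, was not called (65.8 ± 0.163 against 68.0 ± 0.955 RPKM, SD, n = 3; log2 fold change -0.05), nor was NPAT, the coactivator of histone gene transcription (0.04). In this list 1 gene was called higher and 4 lower, beside 5.62% and 7.36% of all genes tested. ZNF473, a component of the histone pre-mRNA processing machinery, was downregulated (1.18 ± 0.0413 against 1.65 ± 0.0459 RPKM; -0.45 ± 0.07 SE, adjusted p = 0.0124, limma). MIF4GD, a partner of SLBP in translation, was downregulated by 0.37 on the log2 scale. UPF1, a helicase that acts in the decay of histone mRNA, had a log2 fold change of -0.29, and the acetyltransferase CREBBP one of -0.16. DDX39B, an RNA helicase of mRNA export, was upregulated (0.17 ± 0.04).

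Among 26 histone chaperones and assembly factors, 3 were called higher, 2 lower and 21 were not called. Of all genes tested, 5.62% were called higher and 7.36% lower. IPO4, which imports H3 and H4 into the nucleus, was upregulated (46.3 ± 1.50 against 38.8 ± 1.44 RPKM; 0.26 ± 0.04 SE). ANP32E, a chaperone that removes H2A.Z, was at 135 ± 4.43 against 115 ± 6.002 RPKM (0.23 ± 0.05), and ATRX, which deposits the H3 replacement variant with DAXX, had a log2 fold change of 0.30. UBN1 (-0.25) and CABIN1 (-0.21), both of the HIRA complex that deposits the same variant, were downregulated.

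Among 28 S phase genes, 4 were called higher, 1 lower and 23 were not called, with a median log2 fold change of 0.02. The shares of all genes tested were again 5.62% higher and 7.36% lower. RRM2 (0.23) and RRM1 (0.12), the subunits of ribonucleotide reductase, FEN1 (0.14), a flap endonuclease, and CCNA2 (0.21), a cyclin of S and G2 phase, were upregulated. CDT1, a replication licensing factor, was downregulated (-0.32). PCNA, the sliding clamp of DNA polymerase, was not called (60.5 ± 2.40 against 62.0 ± 2.89 RPKM). Adjusted p-values of the genes called in these 3 lists were between 0.0114 and 0.0386.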

How the data were processed

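RPKM values per gene were deposited by the authors for each of 6 stranded mRNA libraries. Per the submitters' processing notes, Trimmomatic 0.36, STAR 2.5.3a and featureCounts of Subread 1.5.1 were used with GRCh38. Strand setting, treatment of multi-mapped reads and annotation release are not given in the sources used here. RPKM times length gave whole reads for 100% of values (tolerance 0.01 reads), which gave the depth and, per library, 3 reads as the least level taken as measurable. Gene spans were equal to GENCODE release 29 for 83 of 85 members.

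Genes that reached 0.1 RPKM in at least 3 libraries were tested on log2(RPKM + 0.1) with limma 3.58.1 (R 4.3.3), with group as the term, a trended prior variance and Benjamini-Hochberg adjustment over all tested genes. Fold changes on this scale understate those of low genes. Simulated data were used to test the fit. Replicate numbers did not pair libraries (correlations of deviations 0.0024 to 0.021), and no replicates agreed within sampling noise (chi-square per degree of freedom 2.50 to 5.66). Genes named were the variants, every called member, the 3 most abundant of each type and called genes of the lists, and others were added after their values were seen. Members and lists were chosen with earlier results of these data known. Stem-loops were searched as 16-base matches. Shared windows of 50 bases were sought among transcripts of the 85 members only. Alternatives were 2 pseudocounts, 3 filters, voom, median-ratio scaling, the replicate block, the study's criteria and each library left out. Figures were drawn with matplotlib 3.10.9.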

Additional observations from a re-analysis of the deposited data

How the results depend on the processing

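The count of replication-dependent genes called higher, 5, became 6 with a filter of at least 10 reads in 3 or more libraries, which added HIST1H2AC. It became 4 with a pseudocount of 0.01, which lost HIST1H2BD, and 3 with no filter on low values. With the replicate block it was 1, by the study's criteria 1, and with 1 library left out 2 to 4. HIST1H2BD was called in 4 of 14 alternative fits. The gene that passed the study's criteria, HIST1H3F, was not among the 5. The count called lower, 0, became 1 without HGC27-FN1 3′-UTR replicate 3 (range 0 to 1), which was HIST2H3D, with 13 reads in all. The count of variants called higher, 1, became 2 with voom on recovered reads and with median-ratio scaling, 0 by the study's criteria and 0 to 1 with 1 library left out. The count called lower, 1, became 0 with median-ratio scaling, the replicate block and the study's criteria, and 0 to 1 with 1 library left out. HIST1H2BK was called in all 14 alternative fits but not by the study's criteria, and the 2 added alternatives of the sums, without HIST1H2BK and HIST1H1C and with each library left out, were chosen after seeing the data. The log2 ratio of the replication-dependent sums was 0.32, and 0.13 to 0.41 under its alternatives; that of the variants was 0.08, and 0.05 to 0.12. Replicate numbers did not pair the libraries, and the cause of the losses under the replicate block was not tested.

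Of 332 values of named members under alternatives, 276 kept direction and call, 34 lost and 2 gained the call, and 20 changed sign, all in genes that were not called. With voom the log2 fold change was 0.27 for HIST1H1B, 0.048 for HIST1H2AM and 0.091 for HIST1H3J, which was 0.016 with a pseudocount of 1 and 0.018 with median-ratio scaling. With 1 library left out, the ranges were -1.24 to 0.22 for HIST1H1E, -0.70 to 0.50 for HIST1H1B, -0.47 to 0.23 for HIST1H2AM, -0.015 to 0.34 for HIST2H2BC, -0.39 to 0.22 for HIST1H3J, -0.62 to 0.29 for HIST1H3B and -0.36 to 0.31 for HIST1H4K. The causes were not tested. Most replication-dependent genes had few reads (50 of 67 had under 100 in all 6 libraries), and all 5 calls were among the other 17.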

Other observations

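Of 10 genes with pseudogene names, 3 passed the filter and none was called by limma, nor did any reach an unadjusted p under 0.05. They held 1 to 28 reads in all 6 libraries.

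Of histone variants outside the naming rule, 6 were tested. H2AFJ, an H2A variant gene, held 12, 15 and 13 reads in HGC27-FN1 3′-UTR cells and 2, 0 and 1 reads in control cells, and passed the filter on low values only through the HGC27-FN1 3′-UTR libraries, so its values are a description. Its ratio after division by depth was 17.2, with an exact 95% interval of 5.47 to 86.8 that covers counting error only. CENPA, the centromeric H3 variant, was at 10.7 ± 0.529 and 10.8 ± 0.554 RPKM (SD, n = 3; log2 fold change -0.01).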
